A study of Mus musculus with 4 samples.

Results

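The genes Apobec1, Gdf3, Dppa3, Nanog and Slc2a3 lie next to each other on mouse chromosome 6, and their contacts were measured by Hi-C in male mouse embryonic stem cells (mESCs). The 5 member genes were taken from the mm9 annotation by name, and they occupied 5 bins of 40 kb, of 3738 bins on chromosome 6 and 66382 in the genome. The region examined held 56 bins, from 1 Mb before Apobec1 to 1 Mb after Slc2a3. The study compared wild-type (WT) mESCs of the N3 line with mESCs described as lacking the Firre locus on the X chromosome (Firre KO). It asked what the loss of a CTCF-rich locus does to the boundaries of topologically associating domains, here in another cell type than fibroblasts. The methods describe a Firre KO mouse and the derivation of mESCs, and name the N3 line for WT alone. Both groups are labelled as male mESCs, and the methods describe 2i medium for both. Irradiated feeder fibroblasts, removed by plating before the assay, are named for Firre KO cells alone in the methods and in a figure legend, while a sentence of the study's results can be read as placing both lines on feeders. Each group had 2 libraries, which the authors pooled into 1 matrix, so no difference between the groups could be tested. Genotype, cell line, culture and library preparation cannot be told apart in any comparison between the matrices.

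Nanog encodes a homeodomain transcription factor that holds mESCs in the naive pluripotent state. Dppa3, also called Stella, is a maternal factor that protects DNA methylation in the early embryo and is expressed with Nanog in naive cells. Gdf3 encodes a ligand of the TGF-beta family, Slc2a3 the glucose transporter GLUT3, and Apobec1 the cytidine deaminase that edits the messenger RNA of apolipoprotein B. The cluster is a textbook example of pluripotency genes that are neighbours and are expressed together. Hi-C does not measure their expression, and a contact value is an average over all cells in a library.

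There were 65611035 read pairs in the WT matrix and 46635652 in that labelled Firre KO. On chromosome 6 these were 3248973 and 1714502 read pairs within the chromosome, and within the region examined 17492 and 8691. Of all read pairs, 16.1% joined different chromosomes in WT and 35.6% in the other matrix. At the targeted gene, which the annotation lists as 6720401G13Rik, the bin at chrX:47920001-47960000 lay wholly within the gene body. It took 1973 read pair ends in WT and 2109 in the other matrix, or 3.65 and 3.43 times the median of X chromosome bins. The labelled deletion was therefore not seen as a loss of reads, and that matrix is called the KO-labelled matrix. All 5 member bins were kept by the correction in both matrices.

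The start sites of the members fell into 4 bins, and each start is seen through the HindIII cuts around it, since HindIII cut the chromatin before ligation. Apobec1 (chr6:122527810-122552462, minus strand) lay in the first member bin, chr6:122520001-122560000. Gdf3 (chr6:122555421-122560105, minus strand) lay across the first and the second bin, with its last 105 bases, which hold its start, in the second. Dppa3 (chr6:122576428-122580290, plus strand) lay in the second bin, chr6:122560001-122600000. A bin without a member followed. Nanog (chr6:122657507-122664651, plus strand) lay in the third member bin, chr6:122640001-122680000, which also held 2174 bases of the Slc2a3 3' end. Slc2a3 (chr6:122677827-122751658, minus strand) reached from that bin into the next 2 bins, the last of which ends at position 122760000. Its transcript 001 starts in the first of these, chr6:122680001-122720000, and only longer annotated transcripts reach the last. Several gene pairs therefore share a bin.

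The HindIII sites nearest to the start of each member's transcript 001 are shown because ligation at such sites produced the read pairs counted. They are printed on the plus strand of mm9 with the site in capitals:
Nanog, chr6:122657378-122657407, intergenic, 194 bases before the start: aggatgccccctAAGCTTtccctccctccc
Dppa3, chr6:122575530-122575559, intergenic, 884 bases before the start: ggatggtgttgtAAGCTTtataatcctagc
Apobec1, chr6:122552379-122552408, exon of Apobec1, 69 bases after the start: cctgaccacagaAAGCTTaagagctgctgg
Slc2a3, chr6:122697111-122697140, intron of longer Slc2a3 transcripts, 4362 bases before the start: tccttaatgtgcAAGCTTgatgacctgcct
For Gdf3 the nearest site was the one in Apobec1, 7712 bases after the Gdf3 start and in another bin. The member bins held 8 to 12 HindIII sites each, where the median chromosome 6 bin held 13, with quartiles of 10 and 16. Their content of G and C was 44.2% to 45.6%, above the chromosome 6 upper quartile of 44.0%.

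Summed over all pairs, contacts among the member bins exceeded the chromosome 6 average in WT and not in the KO-labelled matrix. Over the 10 pairs of different member bins, WT had 969 read pairs where the mean of chromosome 6 at the same distances gave 643.3. The observed over expected value was 1.51, with an exact 95% Poisson interval of 1.41 to 1.60. The matrix labelled Firre KO had 393 read pairs against 408.8 expected, a value of 0.961 (0.869 to 1.06). The ratio of the second matrix to WT was 0.638, with a conditional exact binomial interval of 0.566 to 0.718, a log2 difference of -0.65. These intervals and all that follow cover counting error only and not the spread between cultures or libraries. Without the correction for bin biases the log2 difference was -0.42. The WT excess lay mainly in pairs with the last Slc2a3 bin, whose values were 1.37 to 2.75 in WT. Pairs of the other member bins had 0.968 to 1.21 in WT, near the average, and 0.479 to 1.19 in the KO-labelled matrix. Without the last Slc2a3 bin the log2 difference was -0.54. When the same layout of 5 bins was moved along chromosome 6, 0.569% of 3517 positions were lower by 1.5-fold or more in the KO-labelled matrix. These positions overlap their neighbours and include the cluster itself, so they are not separate observations. Over those positions the log2 difference had a median of -0.00 and quartiles of -0.15 and 0.13. The WT value of 1.51 lay above the 95th percentile of the layouts, 1.26, whereas 0.961 in the other matrix lay between the quartiles of 0.868 and 1.11. The mean value between chromosomes was 0.0202% of the expected value at 200 kb in WT and 0.0612% in the KO-labelled matrix, and subtracting it left the log2 difference at -0.65.

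**Figure D1:**
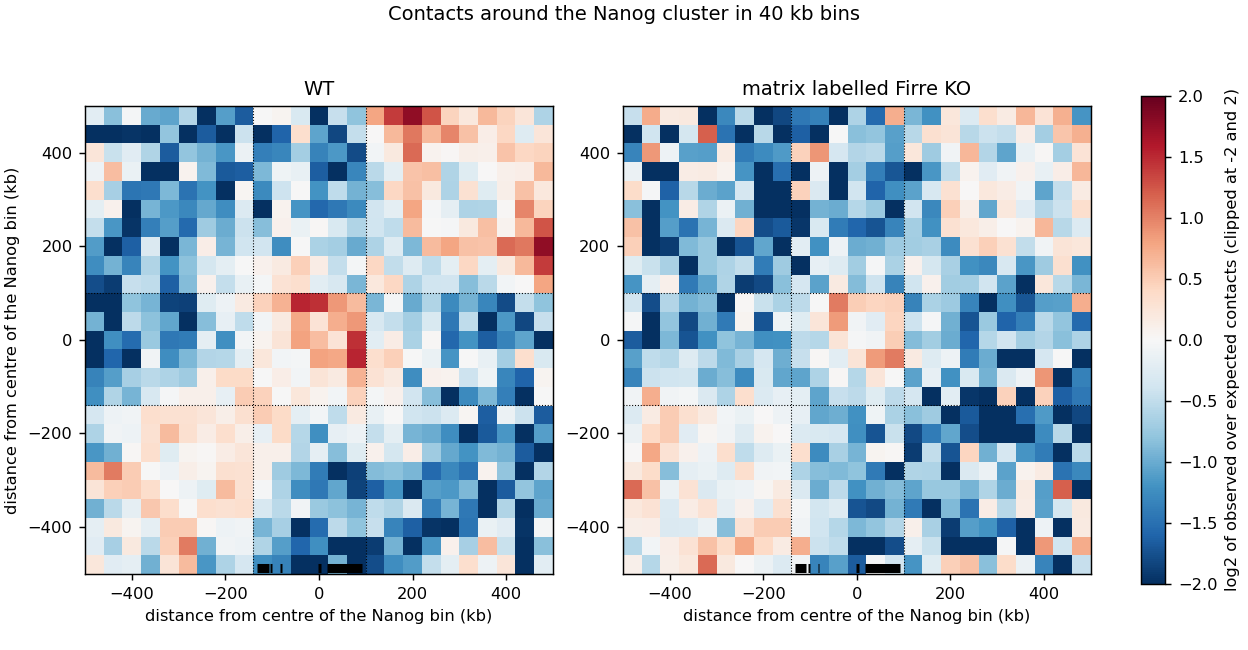
Heatmaps of log2 observed over expected contacts in 40 kb bins, 12 bins to each side of the centre of the Nanog bin, for WT and the KO-labelled matrix. Black bars mark the member genes and dotted lines the edges of the cluster; the red block of Nanog and Slc2a3 in WT (observed over expected 1.91 over 3 bin pairs) is paler in the other matrix (1.23).

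Among the member bins, the highest values in both matrices were those of the last Slc2a3 bin with the Nanog bin and with the Slc2a3 bin before it. The Nanog bin and the last Slc2a3 bin, 80 kb apart, shared 252 read pairs in WT and 87 in the KO-labelled matrix. The values were 2.75 (2.42 to 3.12) and 1.41 (1.13 to 1.74), a ratio of 0.511 (0.396 to 0.655). Both matrices were above the chromosome average here, and their intervals did not overlap. The last 2 bins of Slc2a3 had 192 and 88 read pairs and values of 1.82 (1.58 to 2.10) and 1.34 (1.08 to 1.65). The Nanog bin and the Slc2a3 bin next to it, which holds the start of the transporter gene, had 118 and 64 read pairs and values of 1.21 (1.00 to 1.45) and 0.948 (0.730 to 1.21). The interval of the ratio for that last pair, 0.567 to 1.07, includes 1. Among the 49 bins kept within the region, the last Slc2a3 bin had the highest value with Nanog in WT. It ranked 4 in the other matrix, behind 3 bins about 1 Mb away that held few read pairs.

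Nanog and Dppa3, the pair of pluripotency genes 80 kb apart by bin, had 75 read pairs in WT and 28 in the KO-labelled matrix. Their values were 1.2 (0.944 to 1.5) and 0.674 (0.448 to 0.974), a ratio of 0.562 (0.350 to 0.878). The WT value was within counting error of the chromosome average, and the other was below it. Gdf3 and Nanog, which add the first member bin, had 131 and 52 read pairs and values of 1.13 (0.946 to 1.34) and 0.683 (0.510 to 0.895). Apobec1 and Nanog had 56 and 24 read pairs and values of 1.05 (0.795 to 1.37) and 0.693 (0.444 to 1.03), and the interval of their ratio, 0.391 to 1.08, includes 1. In WT, contacts of Nanog with the genes before it were thus near those with the bin of the Slc2a3 start (1.21), and it was the last Slc2a3 bin that stood apart.

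Apobec1, Gdf3 and Dppa3 share their only pair of different bins, so the 3 gene pairs among them have a single value. That adjacent pair had 97 read pairs in WT and 27 in the KO-labelled matrix, with values of 0.998 (0.809 to 1.22) and 0.479 (0.316 to 0.697). The ratio was 0.480 (0.301 to 0.742), the lowest of the 10. The Dppa3 bin and the last Slc2a3 bin had 66 and 24 read pairs and values of 1.61 (1.25 to 2.05) and 0.994 (0.637 to 1.48), the third highest in WT. Dppa3 with the 3 bins of Slc2a3 gave 174 and 73 read pairs, values of 1.31 (1.12 to 1.52) and 0.876 (0.686 to 1.10), and a ratio of 0.667 (0.50 to 0.881). Here the bins counted mattered. Between the Dppa3 bin and the bin of the Slc2a3 start alone there were 33 and 21 read pairs, with values of 1.13 (0.781 to 1.59) and 1.19 (0.735 to 1.82), whose intervals overlapped almost wholly. Gdf3 and Apobec1 with all bins of Slc2a3 had values of 1.23 (1.10 to 1.37) and 1.14 (0.955 to 1.35) in WT, and 0.806 (0.672 to 0.959) and 0.729 (0.547 to 0.951) in the other matrix. With start bins alone, Gdf3 and Slc2a3 gave the same bin pair as Dppa3 and Slc2a3. Apobec1 and Slc2a3 then had values of 0.968 (0.632 to 1.42) in WT and 0.846 (0.463 to 1.42) in the KO-labelled matrix.

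Of the 10 pairs of member bins, 9 were lower in the KO-labelled matrix, 6 of them by 1.5-fold or more. The 10 pairs share their bins and are not separate observations. Over all 13108 chromosome 6 bin pairs at these distances with at least 10 expected read pairs in both matrices, 13.2% were lower by that much. The median log2 difference of the 10 was -0.65, where that of the chromosome 6 pairs was 0.00. Read pairs within single member bins followed the same direction, with 704 and 288 pairs and values of 1.46 (1.35 to 1.57) and 1.02 (0.908 to 1.15). The bin between Dppa3 and Nanog, which holds no member, had values with the member bins of 1.62 (1.49 to 1.77) and 1.28 (1.12 to 1.44). With the last Slc2a3 bin it reached 2.86 (2.40 to 3.38) in WT, the highest value among the 6 bins of the cluster, and 2.06 (1.56 to 2.67) in the other matrix.

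**Figure D2:**
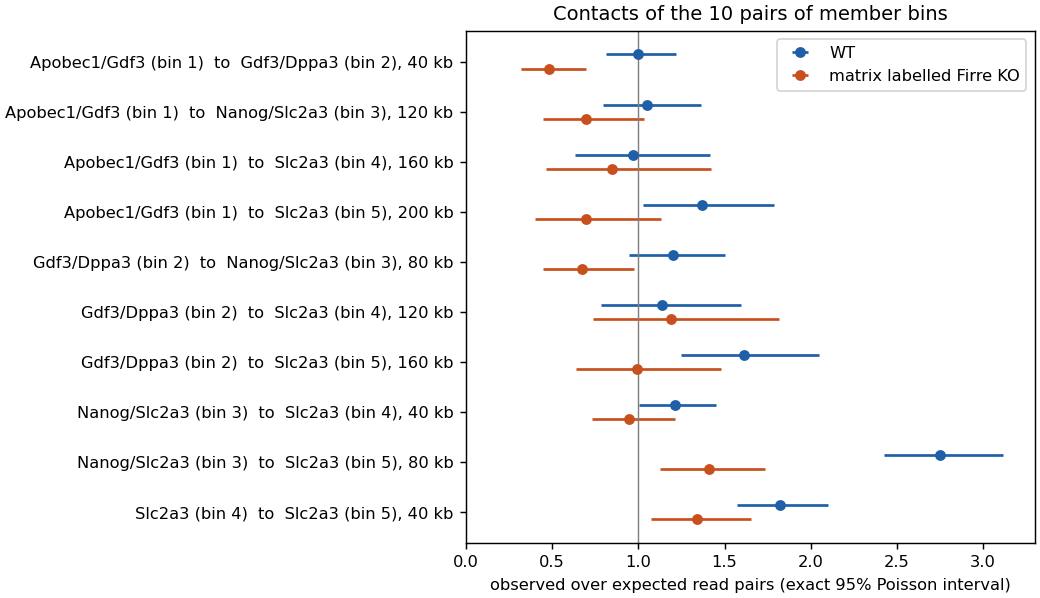
Observed over expected read pairs for each of the 10 pairs of member bins, numbered 1 to 5 in genome order, with exact 95% Poisson intervals; the vertical line at 1 is the chromosome 6 mean at the same distance. WT lies to the right in 9 pairs, furthest for the Nanog bin and the last Slc2a3 bin (2.75 against 1.41).

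The neighbours within 1 Mb were then grouped by position, after the annotation of the region had been read. Summed over the member bins, the nearest groups had fewer contacts in the KO-labelled matrix than in WT, and the more distant ones did not. These ratios were not set beside their spread over chromosome 6. On the Apobec1 side, Rimklb and Mfap5, the latter a microfibril protein gene, had 357 and 176 read pairs with the member bins. Their values were 0.793 (0.713 to 0.880) in WT and 0.651 (0.558 to 0.755) in the other matrix, a ratio of 0.821 (0.681 to 0.986). On the Slc2a3 side, Foxj2, a forkhead factor, C3ar1, a complement receptor, and Necap1, an endocytic adaptor, had values of 0.804 (0.736 to 0.877) and 0.566 (0.494 to 0.644). Their ratio was 0.703 (0.599 to 0.824).

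Beyond these, Klrg1, M6pr and the Polycomb gene Phc1 had values of 0.580 (0.502 to 0.668) and 0.644 (0.538 to 0.765), a ratio of 1.11 (0.882 to 1.39). The 9 Clec4 genes, which encode C-type lectins of immune cells, had 0.539 (0.481 to 0.601) and 0.601 (0.522 to 0.690), a ratio of 1.12 (0.932 to 1.33). The furthest groups were higher in the KO-labelled matrix. A2m, Mug1 and Mug2, which encode protease inhibitors of plasma, had 40 and 43 read pairs and values of 0.310 (0.222 to 0.422) and 0.496 (0.359 to 0.668), a ratio of 1.60 (1.01 to 2.52). The 6 Vmn2r genes, which encode vomeronasal receptors, had 63 and 83 read pairs and values of 0.562 (0.432 to 0.719) and 0.922 (0.734 to 1.14), a ratio of 1.64 (1.17 to 2.31). Bins from 123360001 to 123560000, amid these genes, were filtered in both matrices, so the values rest on the bins kept around them. In WT all 6 groups lay below the chromosome average. The order of near and distant groups was less clear from the Nanog bin alone. There Klrg1, M6pr and Phc1 had a ratio of 0.704 (0.372 to 1.28), and Rimklb and Mfap5 one of 0.980 (0.598 to 1.58). The other groups kept the direction they had with the member bins.

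**Figure D3:**
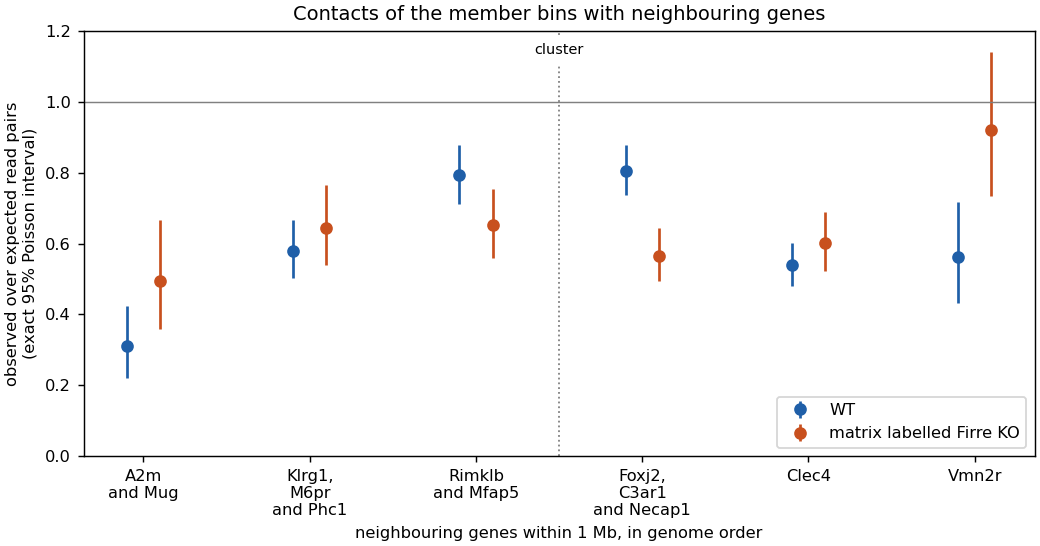
Observed over expected read pairs between the 5 member bins and 6 groups of neighbouring genes in genome order, with exact 95% Poisson intervals, in WT and the KO-labelled matrix. The 2 groups next to the cluster are lower in the latter (ratios of 0.821 and 0.703), and the outermost are higher (1.60 for A2m and Mug, 1.64 for Vmn2r).

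The insulation score compares the contacts that pass over a bin, in a square of 480 kb on each side, with the chromosome mean, and a low score marks few crossing contacts. The cluster lay in a broad valley of this score in both matrices. In WT the score was -0.95 at the first member bin, -0.81 at the Nanog bin and -0.80 at the last Slc2a3 bin. In the KO-labelled matrix the same bins had -0.67, -0.72 and -0.69. The means over the 5 member bins were -0.85 and -0.69, a difference of 0.15. The WT mean lay just below the 5th percentile of chromosome 6 bins, -0.84. In the KO-labelled matrix the mean lay just below the lower quartile of -0.65 and well above the 5th percentile of -1.50. By its place among chromosome 6 bins, the score with these settings was thus less low there. The difference at the member bins ranged from 0.09 to 0.28 and passed 0.5 at 0 of 5, where 21% of 3589 chromosome 6 bins passed it either way. The direction was not stable. With squares of 240 kb or 960 kb, or with a plain mean in place of the interquartile mean, the difference was -0.37, -0.10 and -0.16. The spread of the score also differed, with an SD over chromosome 6 bins of 0.46 in WT and 0.74 in the other matrix.

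Read pairs in the square over the Nanog bin numbered 1477 in WT and 733 in the KO-labelled matrix. Relative to the mean of the chromosome at each distance, the values were 0.807 (0.767 to 0.849) and 0.676 (0.628 to 0.727), a ratio of 0.838 (0.766 to 0.916). At the Slc2a3 start they were 0.892 (0.850 to 0.935) and 0.676 (0.630 to 0.726). The ratio ranged from 0.758 to 0.860 over the 5 member bins, whose squares overlap almost wholly and are not separate observations, and its interval lay below 1. That held for 36.5% of 3606 chromosome 6 bins, where the ratio had a median of 0.986 and a lower quartile of 0.850. Contacts crossing the cluster were thus below average in both matrices. By this measure they were lower in the KO-labelled matrix at each member bin, whereas the insulation score with the study's settings was higher there.

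The boundary on the Apobec1 side was placed differently. In WT it was called at chr6:122360001-122400000, 280 kb before the Nanog bin, in a bin that overlaps Rimklb, with a strength of 2.47 that ranked 5 of 143 on chromosome 6. The score there was -1.23 in WT and -0.66 in the other matrix. In the latter the nearest boundary lay in the cluster itself, at the bin of Gdf3 and Dppa3, chr6:122560001-122600000, with a strength of 1.39 that ranked 77 of 122. The score of that matrix ranged only from -0.72 to -0.65 over the 12 bins from 320 kb before Nanog to 120 kb after it, where WT ranged from -1.23 to -0.78. With squares of 240 kb and 960 kb, the left boundary of that matrix fell at positions starting at 122040001 and 122360001. On the far side, both matrices had a boundary over C1rb and C1s, genes of complement proteases, at bins starting at 124480001 in WT and 124520001 in the KO-labelled matrix. Over chromosome 6, 47.6% of 143 WT boundaries had a boundary within 1 bin in the other matrix, a share of 57.8% with squares of 240 kb and 28.2% with squares of 960 kb. The right boundary was among these and the left was not. Under other settings the nearest boundaries after the Nanog bin lay further apart in the 2 matrices. With squares of 960 kb, the plain mean and a delta span of 160 kb, the KO-labelled position differed from WT by -120, 160 and 80 kb. With squares of 240 kb and uncorrected read pairs it differed by -1640 and -1600 kb. There the KO-labelled matrix called a boundary at the last Slc2a3 bin, starting at 122720001, and just after the cluster, at a bin starting at 122800001. Whether it also had a boundary near that of WT in these 2 settings was not examined.

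**Figure D4:**
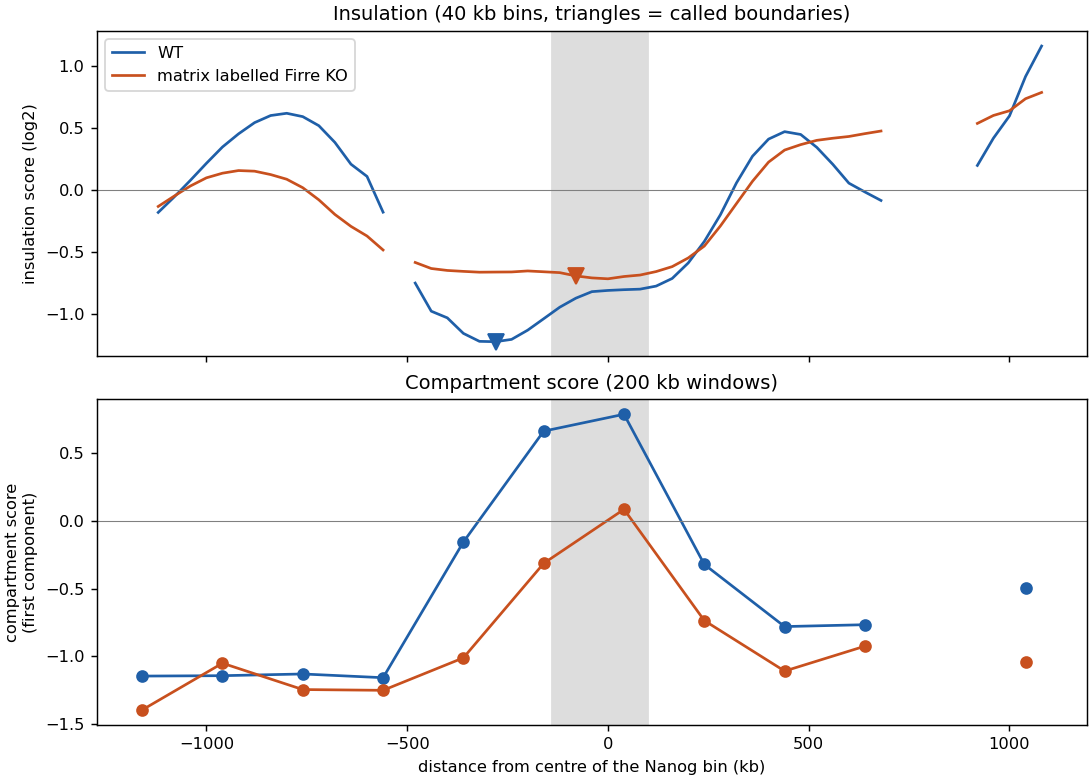
Insulation score in 40 kb bins with called boundaries as triangles (top) and compartment score in 200 kb windows (bottom), by distance from the centre of the Nanog bin; grey marks the cluster. WT dips to -1.23 before the cluster and has compartment scores of 0.66 and 0.79 within it, against -0.31 and 0.09 in the KO-labelled matrix; breaks in the lines are filtered bins.

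The WT domain as called ran from the Rimklb boundary to that at C1rb and C1s. Within the domain, the bins from 123360001 to 123560000 were filtered in both matrices. No boundary could be called in that stretch or close beside it. The WT insulation score fell from 0.47 to -0.09 before the stretch and rose from 0.20 to 1.16 after it. Whether a boundary lies there was not tested. Contacts over the domain as called were 1.14 times expected (1.12 to 1.15) in WT and 1.02 (0.992 to 1.04) in the KO-labelled matrix. The ratio of 0.895 (0.869 to 0.922) was closer to 1 than that of the member bins. Contacts across the left boundary were 0.736 (0.702 to 0.771) and 0.839 (0.794 to 0.887), a ratio of 1.14 (1.06 to 1.23). Across the right boundary they were 0.823 (0.786 to 0.860) and 0.575 (0.539 to 0.613), a ratio of 0.699 (0.646 to 0.756). With the boundaries of the KO-labelled matrix the log2 difference on the left was 0.0079, in place of 0.19, and on the right -0.55. From uncorrected read pairs it was -0.048 within the domain, in place of -0.16, and -0.30 across the right boundary, in place of -0.52.

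The compartment score, the first component of the contact pattern along chromosome 6 with gene-rich windows positive, was highest at the cluster among the windows of the region in WT. The 200 kb windows that hold the members scored 0.66 and 0.79. The windows that touch them, starting at 122200001 and 122800001, scored -0.16 and -0.32, and the next ones out, starting at 122000001 and 123000001, scored -1.16 and -0.78. In the KO-labelled matrix the member windows scored -0.31 and 0.09, still the highest of the region, with -1.01 and -0.74 in the touching windows and -1.25 and -1.11 in the next. The drop was not limited to the members, since the touching window on the Apobec1 side differed by -0.85 and that on the Slc2a3 side by -0.41. The means over the member windows were 0.72 and -0.11, a difference of -0.84. Over 729 windows of chromosome 6 the difference had a median of 0.02, quartiles of -0.33 and 0.27, and a 5th percentile of -1.21. The cluster was thus beyond the lower quartile but not among the lowest, and 14.7% of windows changed sign. Its place on the chromosome moved less, with 67.2% of windows below the member mean in WT and 57.9% in the KO-labelled matrix. Positive scores were given to 45.4% of windows in WT and 39.5% in the other matrix. The difference was -0.83 with windows of 400 kb and -0.84 without pairs under 2 Mb.

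Far contacts, over 2 Mb along the chromosome, made up 45.5% of the corrected contacts of the member bins in WT and 46.8% in the KO-labelled matrix. In read pairs these were 3549 of 7763 and 2163 of 4604, shares of 45.7% (Wilson 95% interval 44.6 to 46.8) and 47.0% (45.5 to 48.4). The median chromosome 6 bin had 38.4% and 35.1%. The cluster was thus above the upper quartiles of 41.5% and 39.9% in both. With the mean value between chromosomes subtracted, the difference of 1.30 percentage points became -0.05, and for contacts over 5 Mb it was 2.67.

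The partners of these far contacts differed in compartment. To keep the labels apart from the contacts counted, windows were scored in the other matrix. In WT the member bins had 1.17 (1.12 to 1.22) times the expected contacts with windows of positive score and 0.850 (0.804 to 0.897) times with windows of negative score. In the KO-labelled matrix these were 1.03 (0.975 to 1.08) and 1.42 (1.32 to 1.52). The preference for positive windows was 1.37 (1.28 to 1.47) in WT and 0.725 (0.663 to 0.793) in the other. Over 3517 layouts along chromosome 6, the medians of this ratio were 0.854 and 0.775. The WT cluster was just above the upper quartile of 1.35 and below the 95th percentile of 1.80. The cluster in the KO-labelled matrix lay between the quartiles of 0.541 and 1.31. The log2 difference in preference was -0.92 (-1.08 to -0.76), and it was -1.08 over windows with the same sign in both matrices and -0.71 beyond 5 Mb. This difference was not set beside its spread over the layouts, and its interval covers counting error only. From uncorrected read pairs the preferences were 1.95 and 1.25, so the order was the same but the second value no longer lay below 1.

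**Figure D5:**
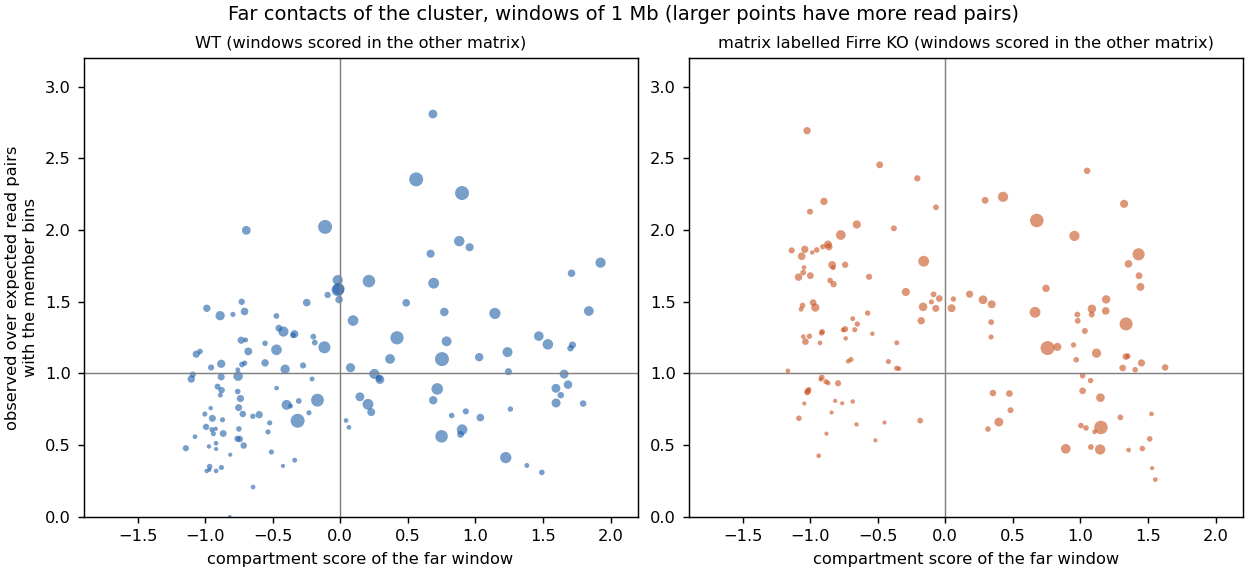
Observed over expected read pairs between the member bins and each far window of 1 Mb, against the compartment score of that window in the other matrix, with larger points for more read pairs. Above 1 lie 36 of 88 windows of negative and 27 of 53 of positive score in WT, and 60 of 80 and 38 of 61 in the KO-labelled matrix.

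The 5 far windows with the highest WT values are given here with those of the other matrix. Of all 141 far windows, 63 were above 1 in WT and 98 in the KO-labelled matrix. The window at chr6:47000001-48000000, with Cul1, a ubiquitin ligase scaffold, and Ezh2, the Polycomb methyltransferase, had 28 and 13 read pairs and values of 2.81 (1.87 to 4.06) and 2.41 (1.28 to 4.13). The window at chr6:108000001-109000000, with Itpr1, a calcium channel of the endoplasmic reticulum, and Sumf1, had 80 and 40 read pairs and values of 2.35 (1.87 to 2.93) and 2.23 (1.59 to 3.04). The window at chr6:134000001-135000000, with the Wnt co-receptor Lrp6 and the phosphatase Dusp16, had 94 and 40 read pairs and values of 2.26 (1.83 to 2.76) and 1.96 (1.40 to 2.67). Tspan9 and Clec2g, at chr6:128000001-129000000, had 138 and 75 read pairs and values of 2.02 (1.70 to 2.39) and 2.07 (1.63 to 2.59). Il12rb2 and Il23r, cytokine receptor genes at chr6:67000001-68000000, had 28 and 15 read pairs and values of 2.0 (1.33 to 2.89) and 2.46 (1.37 to 4.05). These windows were chosen by their WT values, and the values of the other matrix were not used. They ranked 3, 5, 15, 11 and 2 in the latter, in the order given. Across 140 windows with read pairs in both, the log2 values of the matrices correlated with r = 0.208 (Pearson) and rho = 0.238 (Spearman), with a median of 16 and 9 read pairs per window; the windows share the member bins and are not independent. With windows of 480 kb in place of 1 Mb, r was 0.123.

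Contacts with other chromosomes made up 17.7% of the read pairs of the member bins in WT (17.0 to 18.4) and 38.0% (37.0 to 39.0) in the KO-labelled matrix. The median chromosome 6 bin had 15.4% and 36.1%, so the cluster lay slightly above its chromosome in both. Read pairs with single genes elsewhere were too few at this depth to be told from the expected counts. Of 25 pluripotency genes, 24 were found in the annotation, all on other chromosomes. They had 0 read pairs with the member bins in WT where 1.28 were expected, a value of 0 with an exact upper limit of 2.87. The limit of 3 read pairs that a count of 0 allows, which is one-sided, is 2.34 times expected. In the KO-labelled matrix they had 4 where 2.31 were expected, a value of 1.73 (0.471 to 4.43). These 4 were 1 each with Nr5a2, Tet2, Lin28a and Fgf4, named after their values were seen. Of 19 lineage genes, 18 were found, with 1 read pair in WT, to Pax6, and 2 in the other matrix, where 0.881 and 1.57 were expected. Since nearly all genes were tied at 0 in WT, no order among them is given, and Pou5f1 and Sox2 had no read pair with the cluster in either matrix.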

How the data were processed

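Hi-C libraries (HindIII, in-situ ligation) of 2 WT and 2 Firre KO mESC samples were mapped to mm9, filtered, pooled per group, binned at 40 kb and iteratively corrected by the authors with HiC-Pro 2.7.8. What they deposited is a corrected contact signal, in 1 matrix per group and without replicate columns. Each value was a whole number of read pairs times a weight of each bin; weights were recovered by fitting, and 100% of values came out whole within 0.05. Chromosome lengths of the bin table equalled those of the mm9 genome on 22 of 22 chromosomes. Genes came from GENCODE M1, the mm9 annotation.

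Expected values were the chromosome 6 mean at the same distance, smoothed beyond 2 Mb. Intervals were exact Poisson (observed over expected), conditional exact binomial (ratios) or Wilson (shares), all 95%. The insulation method was an own implementation with the study's settings (480 kb square, 320 kb delta span, 160 kb smoothing, interquartile mean, strength above 0). Compartments used 200 kb windows. The ratio, its interval and the boundary call were tested on simulated data with Poisson noise alone. Both simulated matrices had the bin weights and depth of the KO-labelled matrix, so unequal depth was not tested. The planted boundary was sharp, unlike the flat valley of that matrix, so its boundary calls at the cluster were not tested either. Named were the 5 members, coding genes over the boundary bins, at most 2 coding genes in each of the 5 highest far windows of WT, and of the gene lists the 3 highest and 3 lowest in WT, a rule that ties at 0 left without use. The list genes and neighbouring genes printed were therefore chosen after their values were seen. A result for 1 item of the region is not reported here. The neighbouring gene groups, the compartment preference of far contacts and its alternatives were added after seeing the data. The members and lists were chosen with earlier results of these data known. Alternatives covered the bins counted, expected values, correction, square, span and window sizes. The 2 samples of a group are described as technical duplicates. Python 3.11.15, numpy 2.4.6, pandas 2.3.3, scipy 1.17.1 and numba 0.67.0 were used.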

Additional observations from a re-analysis of the deposited data

How the results depend on the processing

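No paired analysis was possible because each group was deposited as 1 pooled matrix in which the libraries have no columns of their own, and for the same reason no replicate could be left out. From uncorrected read pairs, the log2 difference was -0.42 for the member bins, -0.42 for Nanog with Slc2a3, -0.048 within the domain, -0.30 across the right boundary and -0.64 for the compartment preference of far contacts, and the insulation difference was 0.30. With the bin of the transcription start alone, Gdf3 and Dppa3 with Slc2a3 both turned to 0.066 and Nanog with Slc2a3 was -0.36. The insulation difference turned to -0.37 with a 240 kb square, -0.10 with 960 kb and -0.16 with a plain mean. The left boundary of the KO-labelled matrix lay 200 kb further along than in WT in the analysis reported, but at -360 kb with the 240 kb square, -80 kb with 960 kb, -160 kb uncorrected and 280 kb with a 160 kb delta span. The right boundary, taken as the nearest after the Nanog bin, was 40 kb apart as reported. It lay at -120, 160 and 80 kb with the 960 kb square, the plain mean and the 160 kb delta span. With the 240 kb square and uncorrected read pairs it lay at -1640 and -1600 kb, where the KO-labelled matrix called it in or just after the cluster. Matched WT boundaries were 14% at the same bin, 62.9% within 2 bins, and 57.8% and 28.2% with squares of 240 kb and 960 kb. The difference in far share was 2.67 percentage points beyond 5 Mb, and r over far windows was 0.123 with windows of 480 kb. With the boundaries of the KO-labelled matrix the log2 difference was -0.11 within the domain and 0.0079 across the left boundary. The compartment difference was -0.83 with 400 kb windows and -0.84 without pairs under 2 Mb, and the compartment preference difference was -0.71 beyond 5 Mb. The causes of these changes were not tested. The insulation difference and the place of the boundaries thus depend on the settings. The difference of the member bins stayed negative under all 8 alternatives (-0.75 to -0.42), of which the transcription start bins alone and the cluster without the last Slc2a3 bin count the same 4 bins. Few read pairs lie behind single far windows (medians of 16 and 9) and gene pairs between chromosomes. Contacts of the pluripotency list had no log2 ratio, since WT had 0 read pairs.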
